A study of Mus musculus with 6 samples.

Results

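The 10 epithelial transcripts Epcam, Krt7, Krt8, Krt18, Krt19, Cdh1, Cldn3, Cldn4, Cldn7 and Wfdc2 were examined in RNA-seq libraries of neutrophils sorted from the tumour-bearing mouse uterus. They were chosen by name and matched to 10 of the 43432 gene IDs in each count table. The hyperoxia group held 3 libraries from mice housed in a chamber with 60% oxygen from postnatal day 18 to 28, and the normoxia group held 3 libraries from mice kept at ambient oxygen over the same days. All mice were 4 weeks old at that point, of the C57BL/6 strain and of the PRPL genotype, a uterine tumour model in which Cre is made from the progesterone receptor locus (Pgrcre/+) and acts in cells that use that locus. Both groups carried the same alleles, and mice without them were not analysed here. The sort took Ly6G-high cells that carried CD45 and CD11b out of digested whole uteri, a gate that does not aim at epithelial cells. The labels do not state whether libraries came from separate mice, and p-values measure the spread between these libraries, which may be technical in part.

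As background, uterine glands and the lining of the uterine cavity are simple epithelia, and uterine carcinomas arise from such cells. Such cells are held together by E-cadherin (Cdh1) and EpCAM, seal the space between them with claudins, and carry a cytoskeleton of paired type I and type II keratins. Gene counts do not show whether an epithelial RNA came from a tumour cell or a normal one, so the genes are called epithelial transcripts here. In bulk samples fewer epithelial cells and less RNA per cell cannot be told apart.

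Libraries held 38683293 to 61715617 counts, so that 3 counts, the floor used here, equalled 0.0486 to 0.0776 CPM (counts divided by the library total, times 1000000). Neutrophil markers were abundant in all 6 libraries, with a summed level of 35910 to 116400 CPM over 13 genes led by S100a9, a cytosolic calcium-binding protein. The genes of the gate were present too: Ptprc, which encodes CD45, had 638.3, 796 and 555.4 CPM in hyperoxia and 617.2, 522.6 and 554.2 CPM in normoxia, and Itgam, which encodes CD11b, had 369.4, 331.2 and 218.4 CPM in hyperoxia and 318.5, 274.3 and 234.2 CPM in normoxia. Ly6g had 175.7, 363.1 and 41.2 CPM in hyperoxia and 139.2, 56.7 and 73.2 CPM in normoxia. Hyperoxia replicate 2 stood apart from the others: chi-square per degree of freedom was 472.7 to 726.5 in pairs with it and 29.8 to 221.3 in pairs without it. In that library the neutrophil markers summed to 116400 CPM, and Ngp, a secondary granule protein of immature neutrophils, reached 5736 CPM, against 35.2 to 490 CPM in the 5 others. Pgr, whose locus drives Cre, had 0.476, 0.243 and 1.61 CPM in hyperoxia and 0.111, 0.188 and 0.465 CPM in normoxia.

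The epithelial transcripts made up a small part of every library, and their sum differed most between 1 hyperoxia library and the 5 other libraries. Summed over the 10 genes, the level was 277.8, 16.5 and 287.6 CPM in the hyperoxia libraries, against 108, 176.9 and 254.8 CPM in the normoxia libraries. These sums were 12267, 1021 and 12885 counts in hyperoxia and 4846, 7513 and 9858 counts in normoxia, or between 0.00165% and 0.0288% of a library. Hyperoxia replicates 1 and 3 had the highest sums of the 6, and hyperoxia replicate 2 the lowest. The mean sum was 194 ± 153.7 CPM for the 3 hyperoxia libraries and 179.9 ± 73.5 CPM for the 3 normoxia libraries (SD), and the normoxia values lay inside the hyperoxia range.

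**Figure D1:**
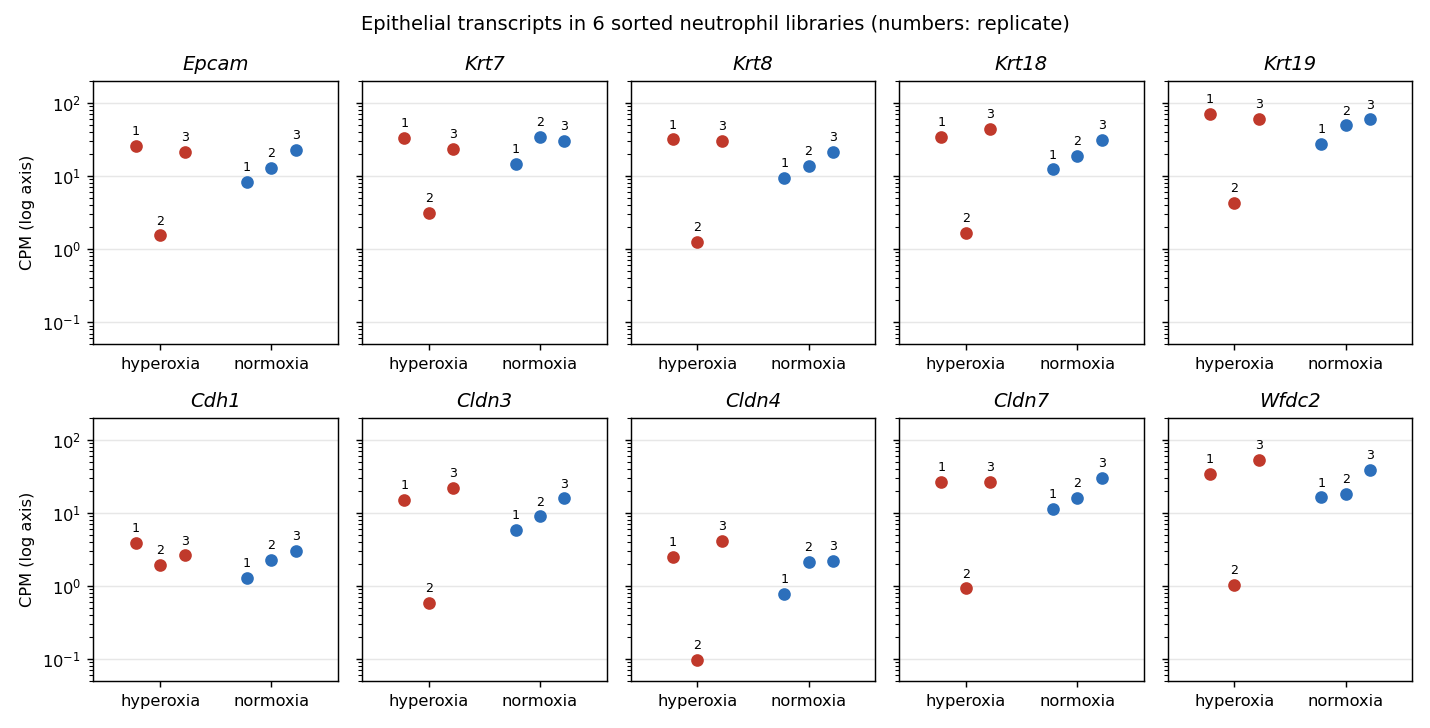
CPM of each epithelial transcript (log axis) in the 3 hyperoxia libraries (red, left) and the 3 normoxia libraries (blue, right), with 1 point per library and the replicate number above it. Hyperoxia replicate 2 lies below the 5 other libraries for every gene but Cdh1, whose 6 values span 1.27 to 3.87 CPM.

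Epcam encodes the epithelial cell adhesion molecule, a surface protein used to recognise carcinoma cells. It stood at 26.2, 1.54 and 21.3 CPM in hyperoxia and at 8.38, 13.1 and 22.7 CPM in normoxia. Hyperoxia replicate 2 was 5.44-fold below the next lowest library, normoxia replicate 1, while hyperoxia replicate 1 was the highest of the 6.

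Cdh1, which encodes E-cadherin, the adhesion protein of the adherens junction, did not share that pattern. It had 3.87, 1.93 and 2.61 CPM in hyperoxia, against 1.27, 2.24 and 2.97 CPM in normoxia. Hyperoxia replicate 2 lay inside the normoxia range for Cdh1, and normoxia replicate 1 was the lowest library. The ratio of Cdh1 to Epcam counts was 0.148, 1.25 and 0.122 in hyperoxia and 0.152, 0.171 and 0.131 in normoxia. In hyperoxia replicate 2, where 119 Cdh1 counts stood beside 95 Epcam counts, the exact 95% interval of the ratio, 0.949 to 1.66, did not reach that of any other library, the highest of which ended at 0.213. Such intervals describe counting error alone, because PCR copies are not separate molecules.

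Krt8 and Krt18 encode the keratin pair of simple epithelia, a type II and a type I chain that form filaments together. Krt18 had 34.4, 1.69 and 44.4 CPM in hyperoxia and 12.3, 18.7 and 31.1 CPM in normoxia. Krt8 had 31.7, 1.25 and 30.04 CPM in hyperoxia, against 9.47, 13.9 and 21.4 CPM in normoxia. In both genes hyperoxia replicates 1 and 3 exceeded every normoxia library and hyperoxia replicate 2 was below every normoxia library. The ratio of Krt18 to Krt8 counts stayed between 1.08 and 1.48 across the 6 libraries, including 1.35 (95% interval 0.996 to 1.84) in hyperoxia replicate 2. The genes are neighbours on mouse chromosome 15, with 23.7 kb between them.

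Krt19, a type I keratin of simple and ductal epithelium, was the most abundant of the 10 in CPM. It had 70.6, 4.34 and 60.6 CPM in hyperoxia, against 27.7, 49.4 and 59.6 CPM in normoxia. Krt7, a type II keratin of ductal and glandular epithelium, had 33.2, 3.16 and 23.3 CPM in hyperoxia, against 14.8, 34.4 and 30.3 CPM in normoxia. For Krt19, hyperoxia replicates 1 and 3 exceeded every normoxia library, replicate 3 only narrowly. For Krt7 normoxia replicate 2 was the highest library, and hyperoxia replicates 1 and 3 lay inside the normoxia range. The ratio of Krt7 to Krt18 counts varied more than that of the Krt8 and Krt18 pair: it was 0.966, 1.88 and 0.524 in hyperoxia and 1.20, 1.84 and 0.972 in normoxia.

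Claudins are the membrane proteins that form tight junction strands. Cldn3 had 14.9, 0.583 and 21.9 CPM in hyperoxia, against 5.77, 8.90 and 15.8 CPM in normoxia. Cldn4, a close relative, had 2.47, 0.0972 and 4.13 CPM in hyperoxia, against 0.780, 2.12 and 2.197 CPM in normoxia. The level of Cldn4 in hyperoxia replicate 2 rested on 6 counts. Cldn7, found along the sides of epithelial cells where it binds EpCAM, had 26.8, 0.924 and 26.5 CPM in hyperoxia, against 11.2, 16.0 and 30.3 CPM in normoxia. Normoxia replicate 3 exceeded all hyperoxia libraries for Cldn7, whereas for Cldn4 hyperoxia replicates 1 and 3 exceeded all normoxia libraries.

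Wfdc2 encodes HE4, a secreted protein with whey acidic protein domains that is made by reproductive tract epithelium. It had 33.8, 1.04 and 52.7 CPM in hyperoxia, against 16.3, 18.1 and 38.6 CPM in normoxia. Of the 10 genes it showed the widest gap at the lower end, with hyperoxia replicate 2 at 15.7-fold below the next lowest library.

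Across the set, hyperoxia replicate 2 was the lowest library for 9 of 10 genes, and in those 9 it was 4.70-fold to 15.7-fold below the next lowest. Over all genes tested it was the lowest library in 22.8% and at least 4-fold below the next lowest in 2.42%. The normoxia libraries differed among themselves too: replicate 1 was the lowest of the 3 for 10 of 10 genes and replicate 3 the highest for 9, with the highest normoxia value 2.15 to 2.82 times the lowest. No share over all genes was taken for these orders within normoxia, so they are description only. Hyperoxia replicate 1 was the highest of the 6 libraries for 4 of 10 genes, beside 8.92% of all genes tested. Hyperoxia replicate 3 was the highest for 4 of 10 as well, beside 27.5% of all genes tested.

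The comparison between groups asked whether extra oxygen for the mouse altered these RNAs in the sorted fraction. All 10 genes passed the filter on low counts and in edgeR (quasi-likelihood, Benjamini-Hochberg) 0 passed an adjusted p of 0.05, beside 0.0% of the 12908 genes tested. At an unadjusted p under 0.05 the count was also 0 of 10, where 9.1% of all genes tested were higher and 3.91% lower in hyperoxia. DESeq2 called 0 of the 10 and 3.97% of all genes. The log2 differences, hyperoxia minus normoxia, ran from -0.33 for Krt7 to 0.55 for Krt8, with standard errors of 0.43 to 0.97 and adjusted p of 0.717 to 0.994 in edgeR. Their median was 0.31 with 8 of 10 above 0, beside 0.04 over all genes tested, but in limma-voom, which averages log values, it was -0.77. For 0 of 10 genes did the groups separate, where 8.1% of all genes tested had every hyperoxia library above every normoxia library and 9.81% below.

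These differences depended on single libraries, among them hyperoxia replicate 2. That library was the lowest for 9 of 10 genes, so leaving it out raises their differences by construction. The counts below are therefore description only, and the shares of all genes beside them are not a like comparison. Without hyperoxia replicate 2, 10 of 10 log2 differences were above 0, with a median of 0.83 (0.04 over all genes tested) and standard errors of 0.30 to 0.44. In edgeR 0 of 10 then passed, as did 0.0% of all genes, with adjusted p of 0.199 to 0.839, and 5 of 10 were higher at an unadjusted p under 0.05, beside 10.6% of all genes. Those 5 were Krt8 (log2 difference 1.13 ± 0.31, SE), Krt18 (0.99 ± 0.33), Cldn3 (0.91 ± 0.37), Wfdc2 (0.88 ± 0.37) and Cldn4 (1.02 ± 0.44). DESeq2 without that library called 1 of 10, Krt8 with a log2 difference of 1.11 and an adjusted p of 0.0425, beside 3.55% of all genes in either direction and 3.07% higher. Counts of Krt8 are uncertain, because 29.7% of the 50-base stretches of its transcripts also occur in transcripts of another annotated gene. For 4 of 10 genes (Krt8, Krt18, Krt19 and Cldn4) both remaining hyperoxia libraries lay above all normoxia libraries, as for 14.0% of all genes. Without hyperoxia replicate 3 the median of the 10 log2 differences was -0.17, without hyperoxia replicate 1 it was 0.02, and without normoxia replicate 3 it was 0.79.

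**Figure D2:**
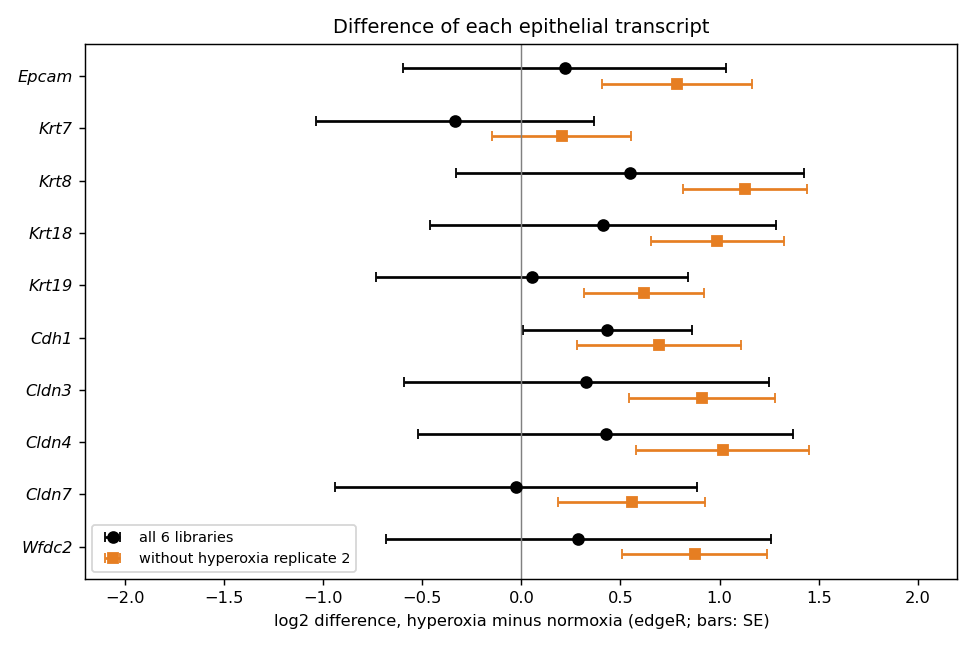
Log2 difference of each epithelial transcript, hyperoxia minus normoxia, from edgeR with all 6 libraries (black circles) and without hyperoxia replicate 2 (orange squares); bars are standard errors. With all 6 libraries the values run from -0.33 to 0.55, and without that library all 10 lie above 0.

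Levels of different genes were compared per kilobase of annotated exon. In the mean of 6 libraries, Krt19 (24.5 CPM per kb) and Wfdc2 (23.5) led, followed by Krt18 (16.5), Cldn7 (9.56), Krt8 (9.18), Cldn3 (8.98), Epcam (7.07), Krt7 (3.29), Cldn4 (1.08) and Cdh1 (0.543). Krt18 was above Cldn7, Epcam above Krt7 and Krt7 above Cldn4 in 6 of 6 libraries. Neighbours in the middle of the order changed places between libraries: Cldn7 was above Krt8 in 3 of 6, Krt8 above Cldn3 in 4 of 6 and Cldn3 above Epcam in 4 of 6. Krt19 was above Wfdc2 in 4 of 6 libraries. The annotated exons of Krt7 add up to 7049 bases, against 1140 to 4574 for the others, which lowers its value per kilobase if its longer exons were not used.

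The shares of some genes were steadier than those of others. Krt18 held 14.4% to 18.0% of the summed CPM per kb in all 6 libraries, and Krt8 held 7.65% to 10.6%. Cdh1 held 5.53% in hyperoxia replicate 2, against 0.332% to 0.556% in the 5 other libraries. Wfdc2 held 11.9% in hyperoxia replicate 2 and 26.9% in hyperoxia replicate 3, with the 4 others between those values. Krt7 held 3.09%, 5.88% and 1.92% in hyperoxia and 3.53%, 5.41% and 2.998% in normoxia, so normoxia replicate 2 was close to hyperoxia replicate 2.

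**Figure D3:**
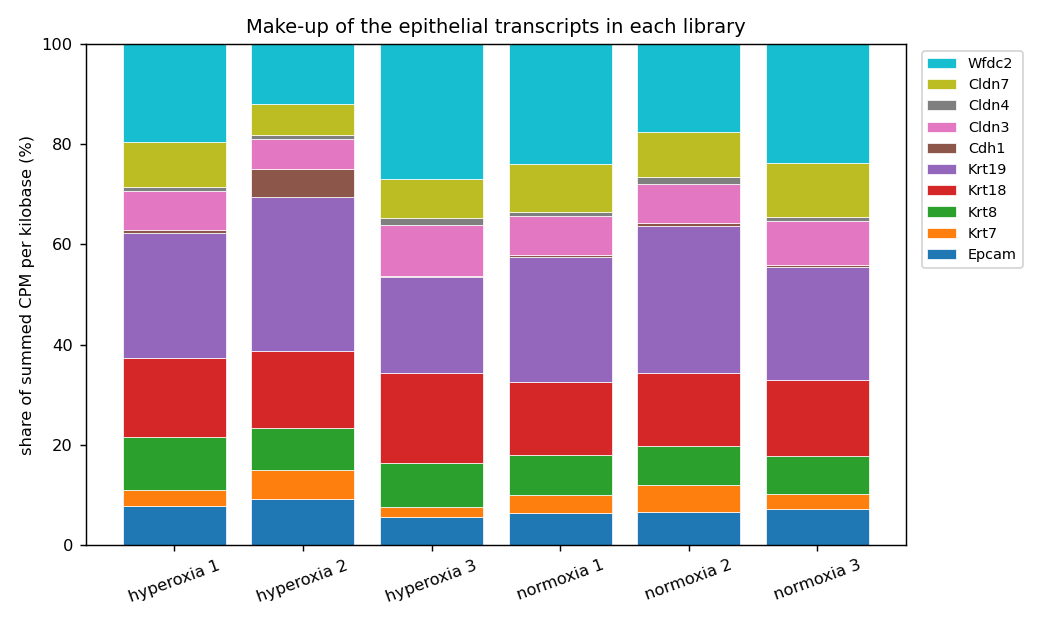
Share of each epithelial transcript in the summed CPM per kilobase of the 10 genes, in percent, with 1 stacked bar per library. Krt19, Wfdc2 and Krt18 take the largest parts in each library, and the Cdh1 segment is visible mainly in hyperoxia replicate 2, at 5.53%.

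The genes lie on chromosomes 2, 5, 8, 11, 15 and 17 of GRCm38, so most of them are not neighbours. On the plus strand lie Epcam (chr17:87635979-87651129), Krt7 (chr15:101411043-101430313), Krt18 (chr15:102028180-102032027), Cdh1 (chr8:106603351-106670246), Cldn7 (chr11:69964779-69967885) and Wfdc2 (chr2:164562413-164568510). Krt8 (chr15:101996698-102004482) and Krt19 (chr11:100140810-100148665) lie on the minus strand. Counts cover the exons of whole genes and do not separate coding from untranslated parts. Cldn4 (chr5:134945119-134946934, minus strand) and Cldn3 (chr5:134986214-134987472, plus strand) are single-exon genes with 39.3 kb between them. Reads may be shared in a few places. Of the 50-base stretches of Krt8 transcripts, 29.7% also occur in transcripts of another annotated gene, mostly the pseudogene Krt8-ps, so counts of Krt8 are uncertain. That share was 0.916% for Krt7, 0.72% for Krt18 and 0 for the 7 other genes. Exons of Gm671 overlap Krt7, Gm36026 overlaps Krt8 and Wbscr25 overlaps Cldn3 on the opposite strand. Wbscr25 had 2 counts in 1 library and 0 in the 5 others, and no value is given for Gm671, Gm36026 or Krt8-ps.

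The stretches before the start sites of Epcam and of 3 claudin genes are shown for description, and their part in the RNA levels was not tested. Each is the 250 bases before a RefSeq start on GRCm38.p6, on the gene's own strand, with matches to CACCTG or its reverse complement CAGGTG (an E-box bound by SNAI and ZEB factors, known as repressors of epithelial genes), AGGAAG or CTTCCT (an ETS core) and AACCGGTT (a grainyhead motif) in capitals; the motifs do not overlap here. Epcam is from chr17:87635729-87635978, plus strand, Cldn7 from chr11:69964529-69964778, plus strand, Cldn4 from chr5:134946935-134947184, minus strand, and Cldn3 from chr5:134985964-134986213, plus strand.
Epcam: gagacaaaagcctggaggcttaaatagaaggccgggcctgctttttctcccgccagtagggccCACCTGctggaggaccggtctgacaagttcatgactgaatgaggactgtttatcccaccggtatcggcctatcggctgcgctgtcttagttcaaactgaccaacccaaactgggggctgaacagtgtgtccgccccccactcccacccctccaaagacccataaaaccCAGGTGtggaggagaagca
Cldn7: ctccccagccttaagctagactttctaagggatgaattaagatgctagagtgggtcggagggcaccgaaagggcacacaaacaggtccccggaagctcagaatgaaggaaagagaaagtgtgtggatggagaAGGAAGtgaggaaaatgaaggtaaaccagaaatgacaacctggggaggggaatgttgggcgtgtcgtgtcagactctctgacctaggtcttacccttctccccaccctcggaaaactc
Cldn4: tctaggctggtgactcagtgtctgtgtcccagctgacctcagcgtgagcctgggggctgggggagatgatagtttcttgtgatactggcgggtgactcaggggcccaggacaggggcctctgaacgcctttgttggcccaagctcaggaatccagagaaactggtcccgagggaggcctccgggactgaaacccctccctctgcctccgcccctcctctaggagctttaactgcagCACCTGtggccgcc
Cldn3: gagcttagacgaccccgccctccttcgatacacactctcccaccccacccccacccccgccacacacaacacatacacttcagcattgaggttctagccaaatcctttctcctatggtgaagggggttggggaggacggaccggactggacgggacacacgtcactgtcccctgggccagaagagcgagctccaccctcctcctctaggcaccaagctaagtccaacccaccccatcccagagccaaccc
Epcam has an E-box from 187 to 182 bases before its start and another from 19 to 14, Cldn4 has 1 from 14 to 9, Cldn7 has an ETS core from 118 to 113, and Cldn3 has none of these letters.

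RefSeq promoters were matched for 8 of the 10 genes; Krt19 and Cdh1 are the others. An E-box of this spelling stood in a 250-base window of 7 of the 8 (for Cldn7 in the window of a second start), and in 19.4% of the 27025 genes with a promoter. The ETS core stood in 4 of 8 and in 32.3% of all genes, and the grainyhead motif in 0 of 8 and in 0.137% of all genes. These matches describe letters and not bound sites.

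Many other listed epithelial genes were also lowest in hyperoxia replicate 2, but some of the most abundant were not. Among 14 listed epithelial transcription factors 11 were tested, with a median log2 difference of 0.35. In edgeR and DESeq2 0 passed, beside 0.0% and 3.97% of all genes tested. At an unadjusted p under 0.05 in edgeR, 0 were higher and 1 lower, beside 9.1% and 3.91% of all genes tested. The lower gene was Grhl1, a grainyhead-like factor (log2 difference -1.74). Hyperoxia replicate 2 was the lowest library for 9 of the 11, beside 22.8% of all genes tested. Elf3, an ETS factor of simple epithelia, had 31.7, 0.843 and 21.3 CPM in hyperoxia and 7.98, 14.0 and 21.04 CPM in normoxia, close to the pattern of Epcam. Klf5, a zinc finger factor that is not limited to epithelium, had 12.4, 23.5 and 12.2 CPM in hyperoxia, against 9.05, 10.2 and 12.2 CPM in normoxia. Ovol1, a repressor of the mesenchymal state, had 3.19, 1.28 and 2.54 CPM in hyperoxia and 1.43, 1.98 and 1.29 CPM in normoxia, so that hyperoxia replicate 2 hardly differed from the lowest normoxia library.

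Of 19 listed junction genes 15 were tested, with a median of 0.35. In edgeR 0 passed and 2 were higher at an unadjusted p under 0.05, F11r and Lsr, beside 9.1% of all genes tested. DESeq2 called 1, F11r, beside 3.97% of all genes called in either direction. F11r encodes a junctional adhesion molecule that leukocytes also carry. It had 38.3, 107.2 and 47.3 CPM in hyperoxia, against 23.8, 23.9 and 20.2 CPM in normoxia (log2 difference 1.499 ± 0.35, SE; adjusted p of 0.153 in edgeR and 0.00363 in DESeq2). Lsr, a receptor of tricellular junctions, had 6.48, 5.04 and 6.90 CPM in hyperoxia, against 2.43, 3.56 and 3.83 CPM in normoxia, with an adjusted p of 0.230 in edgeR. In both genes every hyperoxia library was above every normoxia library, which held for 2 of the 15 and for 8.1% of all genes tested. Jup, which encodes plakoglobin of desmosomes and adherens junctions, had 8.99, 16.9 and 16.1 CPM in hyperoxia and 9.94, 13.4 and 9.69 CPM in normoxia, with overlapping groups. Hyperoxia replicate 2 was the lowest library for 11 of the 15, beside 22.8% of all genes tested.

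Of 15 listed surface and secreted genes 14 were tested, with a median of 0.19. In edgeR and DESeq2 0 passed, beside 0.0% and 3.97% of all genes tested. At an unadjusted p under 0.05 in edgeR, 1 was higher, Spint1, beside 9.1% of all genes tested. Spint1, an inhibitor of membrane-bound serine proteases, had 36.0, 261.8 and 26.5 CPM in hyperoxia, against 32.2, 18.9 and 17.6 CPM in normoxia, with a log2 difference of 2.204 ± 0.80 (SE) that was 0.52 without hyperoxia replicate 2. The library with the lowest Epcam thus had the highest Spint1, and it also had the highest sum of neutrophil markers. Which cells the Spint1 RNA came from was not tested. Spint2, a second inhibitor of that kind, had 32.3, 24.5 and 49.5 CPM in hyperoxia and 38.8, 50.8 and 58.9 CPM in normoxia. Hyperoxia replicate 2 was the lowest for 10 of the 14, beside 22.8% of all genes tested.

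Most keratins outside the 10 genes had lower levels in hyperoxia than in normoxia. Of 11 listed keratins 9 were tested, with a median log2 difference of -3.23. In edgeR 0 passed. At an unadjusted p under 0.05 in edgeR, 6 were lower and 0 higher, beside 3.91% and 9.1% of all genes tested. DESeq2 called 1 lower, beside 3.97% of all genes called in either direction, and gave no p for Krt14. The 6 were Krt15, Krt14 and Krt5, keratins of the basal layer of stratified epithelia, Krt13 and Krt4, the pair of the upper layers in stratified epithelia that do not cornify, and Krt6a, a keratin of growing or stressed stratified epithelium; beyond Krt15 and Krt14 they were chosen after their values were seen. Krt15 had 2.22, 0.227 and 0.357 CPM in hyperoxia, against 4.26, 19.9 and 8.61 CPM in normoxia (log2 difference -3.43 ± 0.93, SE; adjusted p of 0.190 in edgeR). Krt14 had 2.42, 0.0972 and 0 CPM in hyperoxia, against 1.74, 12.6 and 11.9 CPM in normoxia, so its groups overlapped in hyperoxia replicate 1. Krt4 had 0, 0 and 1 counts in the 3 hyperoxia libraries and 14, 98 and 57 counts in the 3 normoxia libraries. Its adjusted p was 0.0974 in edgeR and 3.09e-05 in DESeq2. Krt80, the most abundant of the list, had 17.0, 32.0 and 17.3 CPM in hyperoxia and 29.5, 23.9 and 22.1 CPM in normoxia, with overlapping groups.

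Summed over all 11 listed keratins, the level was 26.2, 33.1 and 23.0 CPM in hyperoxia, against 43.1, 87.6 and 61.9 CPM in normoxia. The 6 named above were picked for being lower, so their own sum, 7.18, 0.324 and 0.469 CPM in hyperoxia and 12.2, 58.8 and 36.8 CPM in normoxia, is a description that the choice itself shapes. Other keratins of stratified epithelia on the list, also named after their values were seen, differed from them. Krt17, a keratin of basal cells and skin appendages, had 1.45, 0.0162 and 4.018 CPM in hyperoxia, against 0.958, 4.002 and 2.46 CPM in normoxia, and Krt10, a keratin of cornifying epidermis, had 0.249, 0.405 and 0.893 CPM in hyperoxia, against 0.156, 0.306 and 0.620 CPM in normoxia. The groups overlapped for both, and hyperoxia replicate 3 was the highest library, for Krt17 only narrowly.

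**Figure D4:**
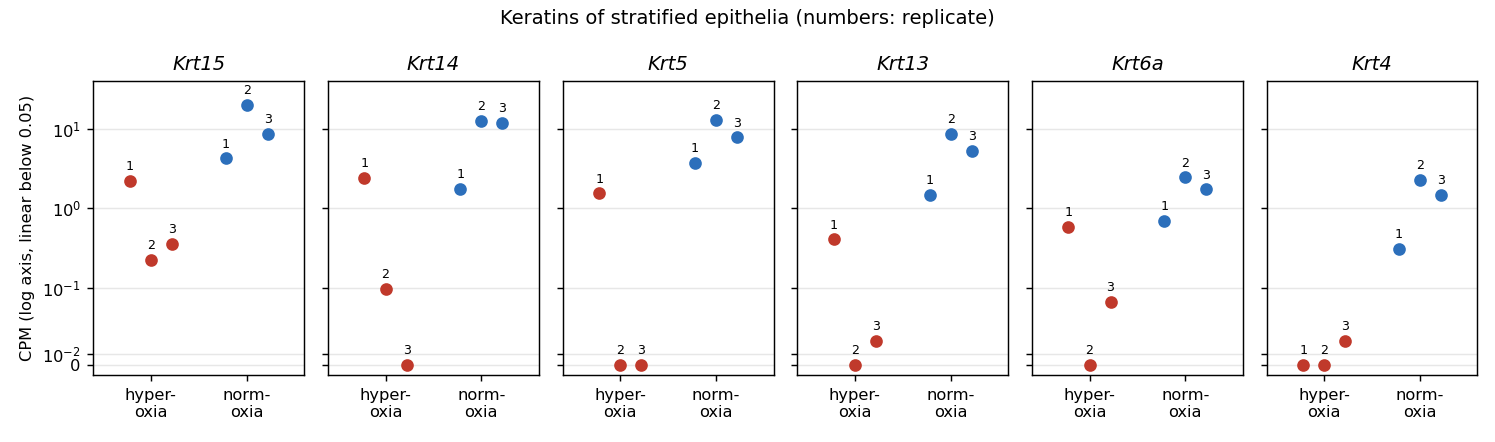
CPM of the 6 listed keratins that were lower in hyperoxia at an unadjusted p under 0.05 in the 3 hyperoxia libraries (red, left) and the 3 normoxia libraries (blue, right), on an axis that is logarithmic above 0.05 and linear below; replicate numbers stand above the points. Hyperoxia replicates 2 and 3 lie at or below 0.357 CPM, and hyperoxia replicate 1 lies below the normoxia libraries except for Krt14.

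Markers of other cell types ranked the libraries differently from the epithelial transcripts. Stromal markers (7 genes) summed to 30.8, 211.6 and 252.1 CPM in hyperoxia, against 18.9, 18.7 and 56.2 CPM in normoxia, and their most abundant member was the collagen gene Col1a1. Endothelial markers (7 genes, led by Pecam1) summed to 22.3, 54.8 and 38.9 CPM in hyperoxia and 8.11, 10.6 and 12.6 CPM in normoxia. Smooth muscle markers (6 genes, led by Acta2) summed to 21.8, 52.1 and 34.5 CPM in hyperoxia and 17.2, 16.6 and 22.3 CPM in normoxia. In hyperoxia replicate 2 the epithelial sum was the lowest of the 6 libraries while the smooth muscle and endothelial sums were the highest.

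Macrophage markers (7 genes, led by Cd68) summed to 881.6, 1055 and 1411 CPM in hyperoxia, against 877.4, 865.3 and 862 CPM in normoxia. For 3 of these 7 every hyperoxia library was above every normoxia library, beside 8.1% of all genes tested. T cell markers (5 genes, led by Cd3g) summed to 2.24, 5.53 and 10.0 CPM in hyperoxia, against 1.003, 1.93 and 2.197 CPM in normoxia. B cell markers (4 genes, led by Cd79b) summed to 1.77, 7.63 and 6.56 CPM in hyperoxia, against 1.27, 2.03 and 2.46 CPM in normoxia. As for stroma and endothelium, hyperoxia replicates 2 and 3 were the highest libraries for both lymphocyte lists. Their part in the levels of epithelial transcripts was not tested.

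Mesothelium, the lining of the outer uterine surface, also uses Krt7, Krt8, Krt18 and Krt19, and its markers were near 0 in most libraries. The 5 mesothelial markers summed to 0.340, 1.64 and 10.6 CPM in hyperoxia and 0.579, 0.942 and 0.336 CPM in normoxia. Upk3b, the most abundant, had 2, 37 and 233 counts in hyperoxia and 1, 3 and 1 counts in normoxia, and Lrrn4 was at 0 in all libraries but hyperoxia replicate 3. Hyperoxia replicate 3 had the highest sum of both the epithelial transcripts (287.6 CPM) and the mesothelial markers. Hyperoxia replicate 1 had 277.8 CPM of epithelial transcripts and 0.340 CPM of mesothelial markers. Whether mesothelial cells added to the epithelial transcripts was not tested.

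**Figure D5:**
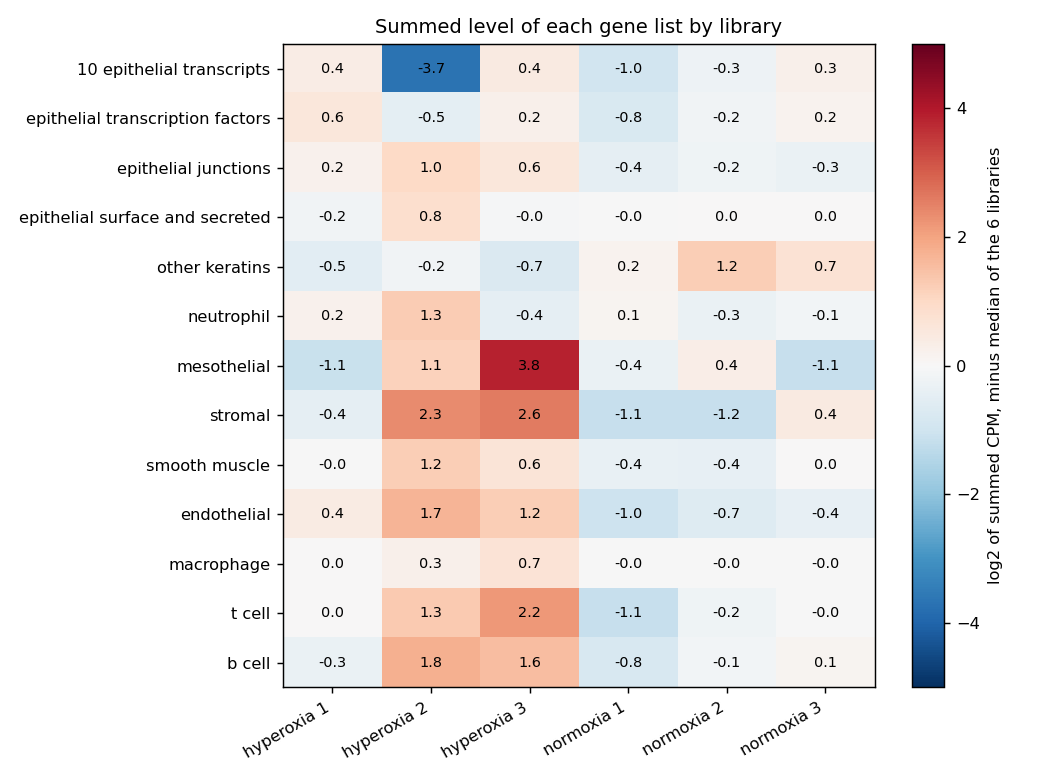
Log2 of the summed CPM of each gene list in each library, minus the median of that list over the 6 libraries (red higher, blue lower). The 10 epithelial transcripts are at -3.68 in hyperoxia replicate 2, whereas stromal, endothelial and smooth muscle markers are above their medians there.

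Genes with the most similar pattern were sought by the root mean squared difference between centred log2(CPM + 0.1) profiles over the 6 libraries. Among the 12908 genes tested, the nearest to the mean profile of the set outside it were Ehf (0.089), Dlx5 (0.125), Tspan1 (0.166), Slc1a1 (0.168) and Rab25 (0.18), where the median of all genes was 1.45. In hyperoxia replicate 2 Ehf had 5 counts, Rab25 4 and Slc1a1 2, which is under the floor of 3 counts. The added 0.1 CPM therefore weighs on their log values in that library. Ehf is an epithelial ETS factor, Dlx5 a homeobox factor, Tspan1 a tetraspanin, Slc1a1 a glutamate transporter and Rab25 an epithelial GTPase of membrane recycling. Ehf had 2.27, 0.081 and 2.39 CPM in hyperoxia and 0.758, 1.34 and 2.28 CPM in normoxia, and Tspan1 had 15.2, 0.924 and 15.2 CPM in hyperoxia and 6.91, 7.82 and 14.9 CPM in normoxia. By the same measure Epcam was at 0.129, Krt19 at 0.143, Krt7 at 0.423, Wfdc2 at 0.521 and Cdh1 at 1.18, which ranked 1987 of the 12908. The mean profile is made from the 10 genes themselves, so their nearness to it is in part built in.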

How the data were processed

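For each of 6 libraries the authors deposited a table of raw counts per Ensembl gene, whole numbers without scaling. The submitters' processing notes name STAR 2.4.2a, DESeq2 1.16.1 and the build GRCm38; per the labels' protocols, an Ovation/NexteraXT kit was used. Which program counted reads, its strand setting and the annotation release are not given in the sources used here. Of 43432 IDs, 42462 matched GENCODE M21 (GRCm38) for symbols, positions and exon lengths. Groups follow the housing condition in the labels, and replicate numbers follow deposition order and pair nothing.

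Groups were compared with edgeR 4.0.16 in R 4.3.3: filterByExpr, TMM scaling, a robust two-sided quasi-likelihood test and Benjamini-Hochberg adjustment over the 12908 genes tested, with standard errors derived from the F statistic. The median standard error was 0.34 on the log2 scale. Alternatives were DESeq2 1.42.0, limma-voom (limma 3.58.1), the same with quality weights per sample, 3 other scalings, 2 other filters and fits that each leave out 1 library. Simulated data with known changes were used to test the code. Every pair of libraries differed by more than sampling noise.

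The 10 genes and the lists were chosen with earlier results of these data known, so no p is given over a list alone. Named were all 10 genes, the 3 most abundant genes of each further epithelial list, the most abundant of each other cell type list, the genes of the model and gate, and the 5 nearest profiles among genes whose symbols are not model names; Grhl1, Lrrn4, Ngp, Krt4, Krt5, Krt6a, Krt10, Krt13 and Krt17 fall outside that rule and were chosen after their values were seen. Of the listed genes, Muc16 matched no ID, and 2 genes that the rule names are not reported here. Promoter sequences are from RefSeq (GRCm38.p6).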

Additional observations from a re-analysis of the deposited data

How the results depend on the processing

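For the 10 genes, 0 passed an adjusted p of 0.05 in edgeR under each scaling, filter and left-out library, in DESeq2 and in limma-voom with or without weights; the exception was DESeq2 without hyperoxia replicate 2, an alternative chosen after the data were seen, which called 1 (Krt8, log2 difference 1.11). Counts of Krt8 are uncertain because of sequence shared with Krt8-ps. Signs were not stable. In limma-voom the differences were -0.59 for Epcam, -0.50 for Krt8, -0.54 for Krt18, -0.71 for Krt19, -0.83 for Cldn3, -0.83 for Cldn4 and -0.95 for Wfdc2, and with sample quality weights -0.065 for Epcam, -0.26 for Krt19, -0.11 for Cldn3, -0.23 for Cldn4 and -0.092 for Wfdc2. Cldn7 was 0.038 with upper-quartile scaling and Krt19 -0.013 with library size only. DESeq2 without hyperoxia replicate 2 gave 0.18 for Krt7 and 0.53 for Cldn7. Leaving out each library, the differences ran from -0.43 to 0.79 for Epcam, -1.05 to 0.20 for Krt7, -0.039 to 0.99 for Krt18, -0.54 to 0.62 for Krt19, -0.23 to 0.91 for Cldn3, -0.25 to 1.02 for Cldn4, -0.55 to 0.56 for Cldn7 and -0.32 to 0.88 for Wfdc2; their median, -0.77 in limma-voom and -0.10 with weights, ran from -0.17 to 0.83, and the log2 ratio of the groups' mean sums, 0.11 with all libraries, from -0.29 to 0.65; that ratio is scaled by library size already, so the alternative of library size only is the same value. The cause was not tested. Over all genes edgeR called 0 (unadjusted p under 0.05: 1175 higher, 505 lower); DESeq2 called 513 (461 higher, 52 lower), weighted limma-voom 62, limma-voom 0, edgeR with no filter 214, and DESeq2 without hyperoxia replicate 2 called 472. Leaving out each library, edgeR called 0 to 176, and the 176 came without hyperoxia replicate 1. No paired analysis was possible because the labels give no replicate numbers. Cldn4 had the lowest count in any library, 6 in hyperoxia replicate 2.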
